A study of Mus musculus with 14 samples.

Results

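Excitatory neurons of the cerebral cortex and hippocampus arise in the pallium, the dorsal part of the embryonic forebrain, and carry a shared set of transcription factors and glutamate transporters. Of 8 genes from this set, 7 were measured here: the transcription factor genes Neurod6, Neurod1, Tbr1, Emx2 and Mef2c, and the vesicular glutamate transporter genes Slc17a7 and Slc17a6. They were chosen by name, 1 probe set per gene, among 14860 genes with a probe set of their own. Emx1, the eighth, had no probe set carrying its symbol alone in the annotation used and is not analysed here.

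Total RNA of cortex and hippocampus from C57BL/6 mice at postnatal day 7, all labelled male, had been hybridised to 14 Affymetrix exon arrays. Every mouse was homozygous for floxed Ctcf (fl/fl), which encodes CTCF, a zinc finger protein that anchors chromatin loops. Controls had no Cre (Nex-Cre +/+), and conditional knockout mice (cKO) carried Nex-Cre on 1 of 2 alleles (+/Cre). No group had Cre without floxed Ctcf, so the loss of CTCF, the presence of Cre and the altered Neurod6 allele cannot be told apart as sources of a difference. By label there were 4 arrays of each genotype for cortex and 3 of each for hippocampus, numbered within each group, and no label names the animal behind an array. The p-values below therefore measure the spread between these arrays.

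Nex-Cre is a knock-in at Neurod6 (also called Nex), in which Cre takes the place of the coding sequence. Neurod6 encodes a basic helix-loop-helix (bHLH) factor that comes on as cortical and hippocampal excitatory neurons leave the cell cycle, so Cre acts in those neurons and largely spares interneurons and glia. NEUROD1, of the same family, acts in newborn neurons and is needed for dentate gyrus granule cells. TBR1 is a T-box factor of early-born, deep layer neurons, EMX1 and EMX2 are homeodomain proteins that pattern the pallium, and MEF2C is a MADS-box factor of maturing neurons. Slc17a7 encodes VGLUT1 and Slc17a6 encodes VGLUT2, the transporters that load glutamate into synaptic vesicles.

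Before the results, 3 arrays labelled hippocampus (control 2, cKO 1 and cKO 3) were set aside, because each matched 1 cortex array of its own genotype (Spearman correlation of 0.997 over all probe sets, against at most 0.990 for any other pair of arrays). Rorb, a layer 4 gene, read from 9.33 to 9.45 on these 3, within reach of the 9.49 to 9.89 of the cortex arrays, and from 7.14 to 7.58 on the other 3 hippocampus arrays. Prox1, a dentate granule cell gene, ran the other way, with 6.65 to 6.91 on the arrays set aside and 8.91 to 9.28 on those kept. That left 11 arrays, with 2 control arrays and 1 cKO array of hippocampus. The Y-linked gene Eif2s3y was low, from 3.03 to 3.79, on cortex cKO 1 and 4, hippocampus control 1 and hippocampus cKO 2. It was at least 8.6 on the other arrays. Kdm5d, also Y-linked, read 4.20 to 4.42 on the low arrays and 7.22 to 7.72 on the others. The low values are at odds with the label of male. No cortex control array was low, so Y-linked signal was unbalanced between the cortex groups. All values are log2 expression values, on which array medians lay between 6.57 and 6.77, and the number of arrays limits their precision.

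The promoters of Neurod6 and Neurod1 are shown because, of these bHLH relatives, the first was called in cKO cortex and the second between the regions, as described next. Each is the 250 bases before the RefSeq start in build GRCm38.p6, 5′ to 3′ on the gene's own strand, with E-boxes (CANNTG, the class of word that bHLH factors bind, the same on both strands) in capitals. Neurod6 lies on the minus strand at chr6:55681264-55681513, and Neurod1 on the minus strand at chr2:79456637-79456886.
Neurod6: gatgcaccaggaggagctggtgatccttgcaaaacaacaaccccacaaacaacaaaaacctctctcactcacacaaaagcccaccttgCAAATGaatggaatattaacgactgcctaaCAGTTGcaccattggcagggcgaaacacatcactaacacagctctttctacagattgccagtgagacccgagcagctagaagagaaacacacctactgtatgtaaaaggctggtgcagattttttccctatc
Neurod1: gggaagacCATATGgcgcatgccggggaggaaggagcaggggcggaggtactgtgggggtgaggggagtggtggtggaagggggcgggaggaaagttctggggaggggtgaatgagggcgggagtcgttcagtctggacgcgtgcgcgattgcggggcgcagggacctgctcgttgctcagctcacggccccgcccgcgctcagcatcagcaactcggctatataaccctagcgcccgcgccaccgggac
The Neurod6 stretch held 2 E-boxes and had a GC content of 46.0%, and that of Neurod1 held 1 and had a GC content of 67.6%. Over the 8 genes, 9 of 11 listed starts had an E-box in this window, against 66.2% of 32851 promoters of all genes. The word CCCTC, from which CTCF takes its name, was in 8 of the 11 on either strand, against 60.5% of all promoters. These are matches of letters, and binding was not measured.

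The comparison of cKO with control cortex asks which identity genes differed once Cre was present and Ctcf deleted. Neurod6 fell to 27.3% of its control level, and it was the 1 member of 7 that was called, against 1.95% of all probe sets (455 of 23332, of which 0.591% were called higher and 1.36% lower). A call means an adjusted p under 0.05 with Benjamini-Hochberg adjustment over all probe sets and a change above 1.2-fold in limma's test. The median change of the 7 was 0.10 on the log2 scale, against -0.02 over all probe sets. The targeted gene, Ctcf, fell to 37.4% (log2 change -1.42, SE 0.08, n = 4 per group, limma adjusted p = 8.42e-05).

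In cortex controls 1 to 4, Neurod6 stood at 10.32, 10.30, 10.32 and 10.05. On the cortex cKO arrays 1 to 4 it read 8.73, 8.26, 7.78 and 8.73. Every cKO array thus lay more than 1 log2 unit below every control array (8.4% of all probe sets had no overlap between these groups), and the cKO arrays were the more spread out of the 2 groups. The mean went from 10.25 ± 0.13 to 8.37 ± 0.46 (SD, n = 4 per group), a 3.66-fold fall (log2 change -1.87, SE 0.21, limma adjusted p = 0.00201). Exact permutation of the 8 array labels, two-sided, gave p = 0.0286, the smallest that 4 against 4 allow. By size of fall it ranked number 6 of 23332 probe sets.

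Because 1 of 2 Neurod6 alleles carries Cre, the size of the fall was set beside a halving, which is -1 on the log2 scale. The 95% interval of the change ran from -2.34 to -1.41, or from 19.8% to 37.7% of the control level. This interval lay wholly beyond a halving. A test for a change beyond 2-fold (limma's treat) gave Neurod6 an unadjusted p of 0.00107. Adjusted over all probe sets its p was 1, so it was not called in a search through all of them. That adjustment does not show that the fall of this 1 gene was as small as a halving. The sources used here do not say which part of the transcript the probes cover. In bulk tissue, fewer cells of a type and less RNA per cell cannot be told apart.

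The lower 2 and higher 2 of the cKO values divided with the Y-linked signal. Both cKO arrays low in Eif2s3y (1 and 4) read 8.73 for Neurod6, and the other pair read 8.26 and 7.78, so no array of either pair fell among the other. With Y-linked signal as a covariate the fall was -2.06 (SE 0.21, adjusted p = 0.00584). Fitted to the remaining 6 cortex arrays, it was -2.23 (SE 0.16, adjusted p = 0.0228). The part of Y-linked signal in this spread was not tested.

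**Figure D1:**
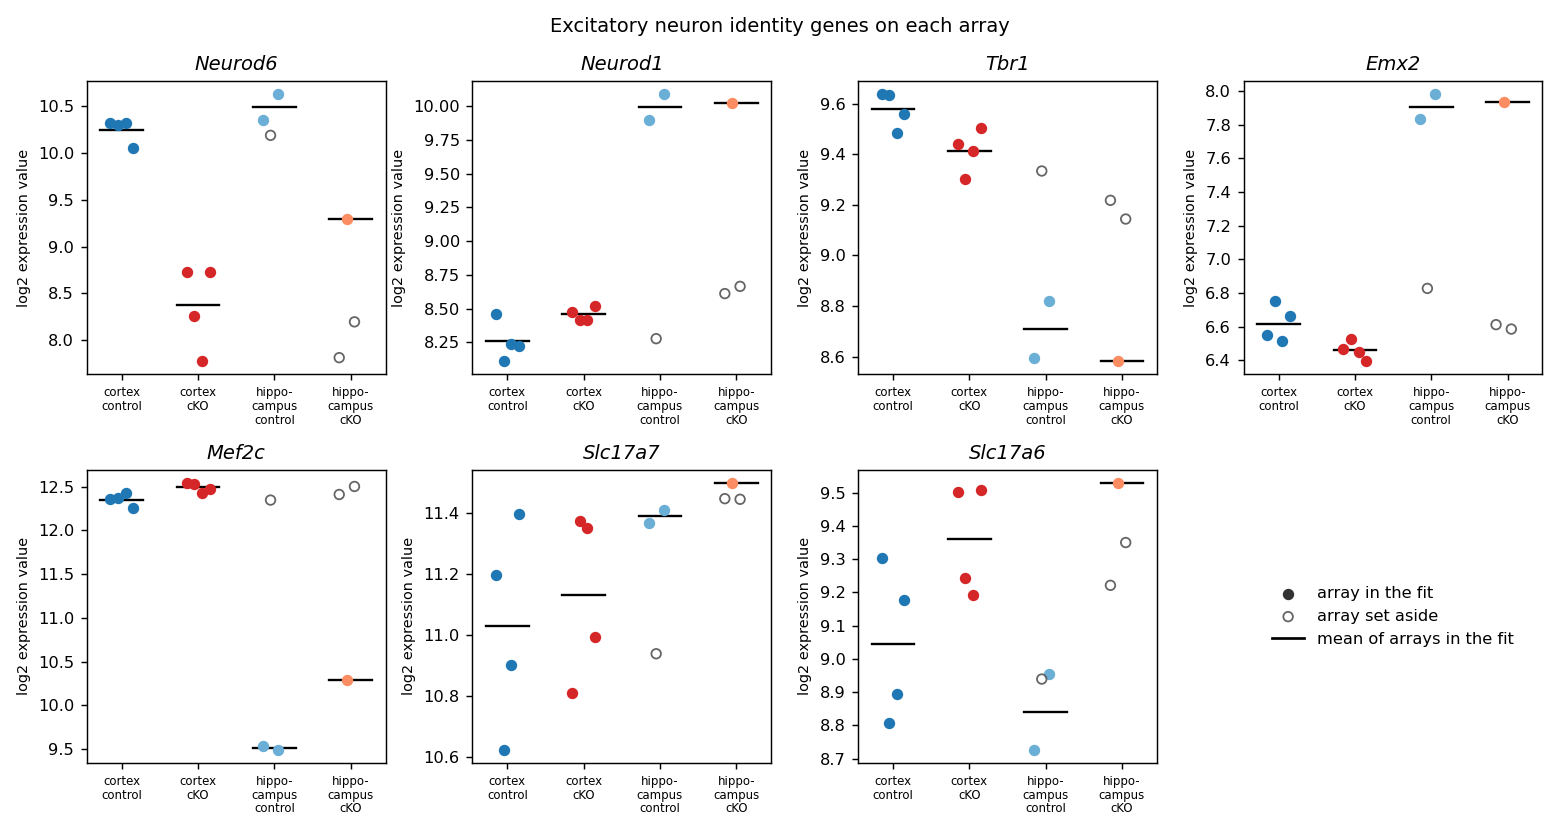
Each panel plots 1 gene: the log2 expression value (y axis, not starting at 0) of every array by group, with filled points for the 11 arrays analysed, open points for the 3 set aside and bars for group means. Neurod6 is between 7.78 and 8.73 on the 4 cortex cKO arrays and above 10 on the cortex control arrays, and the open points of Neurod1, Tbr1, Emx2 and Mef2c lie near the cortex arrays.

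None of the other 4 transcription factors was called in cKO cortex, and their group means differed by at most 0.20 on the log2 scale. Neurod1 read 8.46, 8.11, 8.24 and 8.22 in controls 1 to 4, and 8.47, 8.42, 8.42 and 8.52 in cKO 1 to 4. The groups overlapped through control 1 alone, and the change was 0.20 (SE 0.09, adjusted p = 0.440, 95% interval -0.001 to 0.40). Mef2c read 12.36, 12.37, 12.43 and 12.25 in controls, and 12.54, 12.53, 12.42 and 12.48 in cKO. Here cKO 3 alone lay below a control array, with a change of 0.14 (SE 0.07, adjusted p = 0.473).

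Tbr1 and Emx2 were slightly lower on average. Tbr1 read 9.64, 9.63, 9.48 and 9.56 in controls and 9.44, 9.30, 9.41 and 9.5 in cKO, a change of -0.16 (SE 0.08, adjusted p = 0.500). Emx2, the dimmest member, read 6.55, 6.75, 6.51 and 6.66 in controls and 6.47, 6.53, 6.45 and 6.39 in cKO, a change of -0.16 (SE 0.08, adjusted p = 0.498). Both pairs of groups overlapped. The 95% intervals bound the level in cKO to between 78.9% and 101% of control for Tbr1, and between 79.4% and 101% for Emx2.

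Neither vesicular glutamate transporter gene was called in cKO cortex. The SD over the 4 arrays was 0.34 in control and 0.28 in cKO for Slc17a7, and 0.23 and 0.17 for Slc17a6. Slc17a7 read 11.20, 10.62, 10.90 and 11.40 in cortex controls 1 to 4, and 10.81, 11.38, 11.35 and 10.99 in cKO 1 to 4. The groups overlapped over nearly their whole range, with a change of 0.10 (SE 0.19, adjusted p = 0.917, 95% interval -0.32 to 0.52), which turned to -0.03 without cortex control 2. Slc17a6 read 9.30, 8.81, 8.89 and 9.18 in controls, and 9.5, 9.24, 9.19 and 9.51 in cKO. Its change was 0.32 (SE 0.13, adjusted p = 0.412, unadjusted p = 0.0421), with overlap through control 1 alone.

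Among the controls the arrays high in Slc17a7 (1 and 4) were also high in Slc17a6, whereas among the cKO arrays those high in Slc17a7 (2 and 3) were the ones low in Slc17a6. The cKO arrays 1 and 4, low in Y-linked signal, were low in Slc17a7 and high in Slc17a6. Without them the change of Slc17a6 was 0.17 (SE 0.16, adjusted p = 0.8), and with Y-linked signal as a covariate it was 0.26 (SE 0.16, adjusted p = 0.655). The part of Y-linked signal in the Slc17a6 difference was not tested.

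The hippocampus comparison rested on 2 control arrays and 1 cKO array, and the lone array was assumed to vary like the other groups. No member was called, against 0.00429% of all probe sets (1 of 23332, by limma), while 1448 probe sets had an unadjusted p under 0.05. Neurod6 read 10.35 and 10.63 in controls 1 and 3 and 9.29 in cKO 2. The cKO array was lower than both controls (67.3% of all probe sets did not overlap in this comparison), at 43.7% of their mean (log2 change -1.19, SE 0.36, adjusted p = 0.516), with a 95% interval from 25.0% to 76.3%. With all 14 arrays as labelled, which adds 2 cKO arrays and 1 control array that read like cortex, Neurod6 was called at -1.95 (SE 0.33, adjusted p = 0.0336). Ctcf there read 8.95 and 9.16 in controls and 8.31 in cKO (-0.75, SE 0.13, adjusted p = 0.172).

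Mef2c had the smallest unadjusted p of the 7 members in hippocampus. It read 9.54 and 9.49 on the control arrays and 10.29 on the cKO array, a difference of 0.78 (SE 0.11, limma adjusted p = 0.0959, unadjusted p = 7.26e-05), or 172% of the control level. With limma's trend and robust options it was called (adjusted p = 0.0293), and with all 14 arrays, 2 of which read like cortex cKO, it was 1.28 (adjusted p = 0.664). Mef2c is much higher in cortex, so markers of cortex on that array are given beside it. The mean of 6 layer 4 and upper layer markers was 8.27 on the cKO array, against 8.07 and 8.26 on the controls and 9.11 to 9.32 on the cortex arrays. Within that list Rorb read 7.40 on the cKO array, between the control values of 7.14 and 7.58, and Cux2 read 7.87, above 7.49 and 7.67.

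Slc17a6 was also higher on the hippocampus cKO array, at 9.53 against 8.73 and 8.95 in controls (0.69, SE 0.23, adjusted p = 0.607, unadjusted p = 0.0156). VGLUT2 is used by Cajal-Retzius cells and by thalamic neurons, so their markers were read on the same arrays. The mean of 8 Cajal-Retzius markers was 7.63 on the cKO array against 7.40 and 7.43 in controls, with all 8 higher and a median difference of 0.19, against 0.06 over all probe sets. The mean of 6 thalamus markers was 7.04 against 6.94 and 7.00. Of these 3 were higher and 3 lower, from -0.59 for Prkcd to 0.67 for Lhx9, with a median difference of 0.03. None of the 14 was called, against 0.00429% of all probe sets. The cKO array and hippocampus control 1 (8.73) were low in Y-linked signal, and hippocampus control 3 (8.95) was not. The part of these markers and of Y-linked signal in the Slc17a6 difference was not tested.

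The other members differed by little in hippocampus. Neurod1 read 9.90 and 10.09 in controls and 10.03 in cKO, Emx2 read 7.83 and 7.98 against 7.93, Tbr1 read 8.60 and 8.82 against 8.58, and Slc17a7 read 11.37 and 11.41 against 11.50. Their differences lay between -0.13 for Tbr1 and 0.11 for Slc17a7, with adjusted p of at least 0.979. Those of Neurod1 (0.04) and Emx2 (0.03) turned negative when arrays were centred on their medians.

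Whether cKO changes differed between regions was tested as an interaction. No member was called, against 0.00857% of all probe sets (2 of 23332, by limma), and 1228 probe sets had an unadjusted p under 0.05. The fall of Neurod6 was estimated as smaller in hippocampus by 0.68 (SE 0.41, adjusted p = 0.973), with a 95% interval from -0.25 to 1.61. The lone hippocampus cKO array was low in Y-linked signal, as were cortex cKO 1 and 4, which had the highest Neurod6 values of their group. The part of Y-linked signal in this difference was not tested. Mef2c differed between regions by 0.64 (SE 0.13, adjusted p = 0.461, unadjusted p = 0.000875), and the unadjusted p of the other members was at least 0.133.

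**Figure D2:**
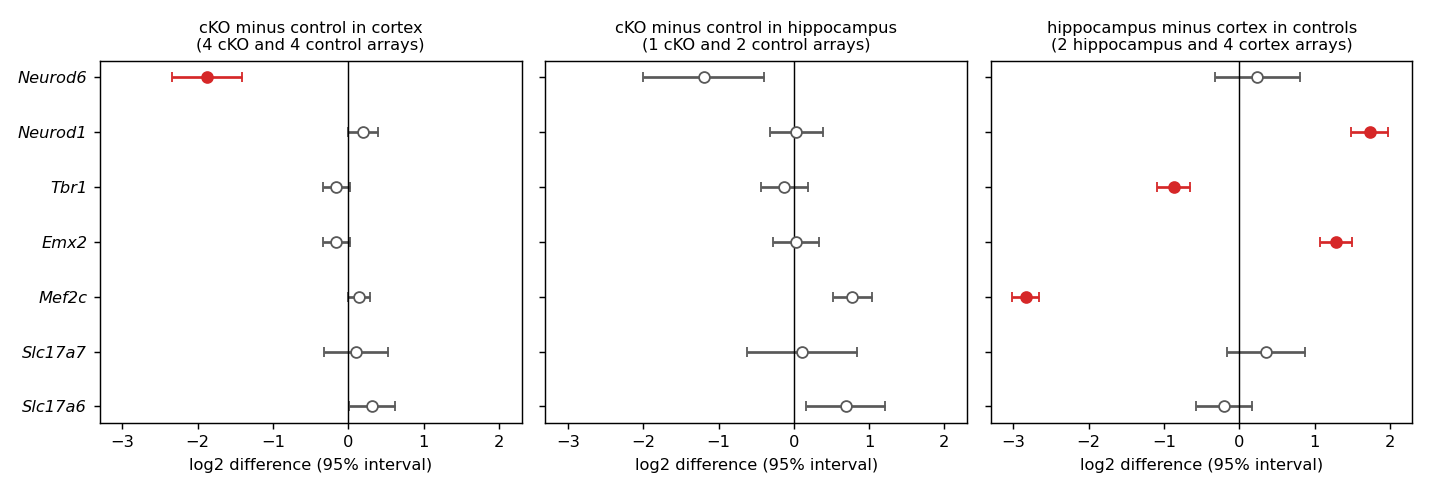
Points show the log2 difference of each member (x axis) with its 95% interval from the limma fit, in 3 comparisons, and filled red points are called. Neurod6 is called in cortex at -1.87 and Neurod1, Tbr1, Emx2 and Mef2c between the regions, while no member is called in hippocampus.

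Between the regions of control mice the members separated strongly. Hippocampus was set against cortex (2 and 4 control arrays), and 2 members were higher and 2 lower of 7, against 12.5% of all probe sets called (6.2% higher and 6.29% lower, or 1446 and 1467 probe sets, which became 1095 and 2455 when arrays were centred on their medians). Neurod1 was 3.33-fold higher in hippocampus, at 9.99 ± 0.14 (SD, n = 2) against 8.26 ± 0.15 (SD, n = 4), a difference of 1.74 (SE 0.11, limma adjusted p = 4.67e-05). Emx2 was 2.44-fold higher, at 7.90 ± 0.11 (SD, n = 2) against 6.62 ± 0.11 (SD, n = 4), a difference of 1.29 (SE 0.09, limma adjusted p = 0.000117). All hippocampus control arrays lay above all cortex control arrays for both genes, and 37.6% of all probe sets did not overlap between these groups.

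Mef2c and Tbr1 ran the other way. Mef2c was 7.14-fold lower in hippocampus, at 9.52 ± 0.03 (SD, n = 2) against 12.35 ± 0.07 (SD, n = 4), a difference of -2.84 (SE 0.08, limma adjusted p = 1.23e-06). Only 2 of 23332 probe sets had a more negative difference in this comparison. Tbr1 was 1.83-fold lower, at 8.71 ± 0.16 (SD, n = 2) against 9.58 ± 0.07 (SD, n = 4), a difference of -0.87 (SE 0.10, limma adjusted p = 0.00113). For both genes the hippocampus control arrays lay below all cortex control arrays, again beside 37.6% of all probe sets without overlap.

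The gene that carries Cre and the transporters were not called between regions. Neurod6 stood at 10.49 ± 0.20 (SD, n = 2) in control hippocampus and 10.25 ± 0.13 (SD, n = 4) in control cortex, a difference of 0.24 (SE 0.25, limma adjusted p = 0.566). Its 2 hippocampus values, 10.35 and 10.63, lay just above the highest cortex value of 10.32. Slc17a7 differed by 0.36 (SE 0.23, adjusted p = 0.333) and Slc17a6 by -0.21 (SE 0.16, adjusted p = 0.443). With all 14 arrays as labelled, which adds a hippocampus control array that reads like cortex, all 4 calls were lost, with adjusted p of 0.128 for Neurod1, 0.0650 for Tbr1, 0.122 for Emx2 and 0.120 for Mef2c. On that array these genes read 8.28, 9.33, 6.83 and 12.35.

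Ordered by level, Neurod6 was highest in control hippocampus (10.49), then control cortex (10.25), cKO hippocampus (9.29) and cKO cortex (8.37), and the first and second were not called as different. Neurod1 and Emx2 were high in both hippocampus groups and low in both cortex groups, and Tbr1 and Mef2c the reverse. The group means of Slc17a6 were ordered by genotype instead, with hippocampus cKO at 9.53, cortex cKO at 9.36, cortex control at 9.05 and hippocampus control at 8.84. Neither cKO difference was called (limma adjusted p of 0.412 in cortex and 0.607 in hippocampus). Cortex cKO 1 and 4 and hippocampus cKO 2, all low in Y-linked signal, read 9.50, 9.51 and 9.53. Cortex cKO 2 and 3, with that signal, read 9.24 and 9.19. Hippocampus control 1, also low, read 8.73, below the 8.95 of control 3. The cKO groups of both regions were not compared with each other, nor the cortex cKO with any hippocampus group. The group means of Slc17a7 lay within 0.47 log2 units, from 11.03 in control cortex to 11.50 in cKO hippocampus.

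Likeness to Neurod6 was measured over the 11 arrays as the mean absolute difference of log2 values, after each gene was centred on its own mean. The nearest of all genes was Fezf2, which specifies subcerebral projection neurons, at 0.19, where the median gene was at 0.87. It read from 9.83 to 9.95 on the cortex control arrays and from 8.19 to 8.38 on the cortex cKO arrays. In hippocampus it read 9.79 and 10.01 in controls and 8.93 in cKO, so its 4 group means had the same order as those of Neurod6. Next came the protocadherin isoform genes Pcdhb7 (0.27) and Pcdhb17 (0.28), Ctcf itself (0.28) and the phosphatase gene Mdp1 (0.29). Since the choice rests on these same arrays, what follows describes the 5 genes and adds no support. They fell in cortex, with log2 changes of -1.63, -1.38, -1.34, -1.42 and -1.29 in that order, and none was called between regions. Pcdhb17 and Mdp1 lost their call when the fit held only the 6 cortex arrays with Y-linked signal, with adjusted p of 0.0936 and 0.0674. Over 13 other settings the cortex change of Pcdhb17 ran from -1.55 to -1.27 and that of Mdp1 from -1.39 to -1.18.

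For the 4 members that separated the regions, the nearest genes separate them too by the way they were chosen, and their values are a description. Slc44a5 and Pcdh20 were nearest to Neurod1 (0.09 and 0.12, higher in control hippocampus by 1.53 and 1.6). Rftn1 and Pkp2 were nearest to Emx2 (0.08 and 0.10, higher by 1.16 and 1.44). Arid5b and Osbpl10 were nearest to Tbr1 (0.06 and 0.07, differences of -0.95 and -0.83). For Mef2c the nearest were Rorb and Foxp2 (0.21 and 0.23, differences of -2.21 and -2.06).

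**Figure D3:**
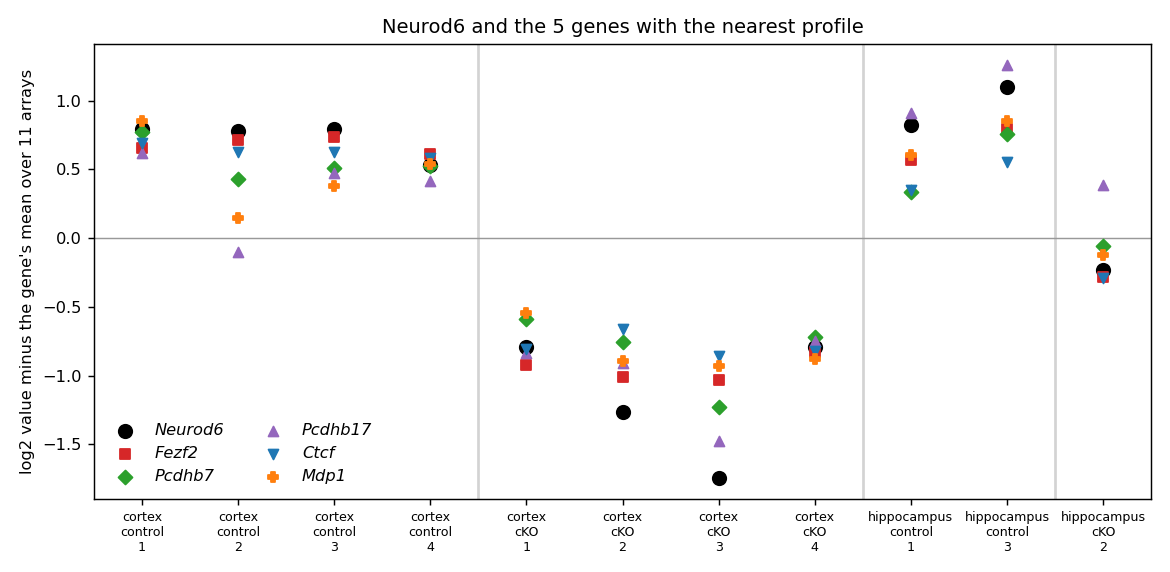
For each of the 11 arrays (x axis) the log2 value of Neurod6 and of the 5 genes nearest to it is plotted, minus each gene's mean over those arrays (y axis). All 6 genes are below their mean on the 4 cortex cKO arrays, and the Neurod6 points of cKO 2 and 3 are lower than those of the other 5 genes.

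Other transcription factors of the pallium were read as a list beside the members. Of 22 measured, 4 fell in cKO cortex and none rose, with 16 negative and a median of -0.19, against -0.02 and 1.36% called lower over all probe sets. Fezf2 fell most (-1.63, SE 0.08, limma adjusted p = 4.70e-05). Bcl11b, a partner of Fezf2 in deep layer neurons, fell by 0.76 on the log2 scale (SE 0.07, limma adjusted p = 0.00102), the corepressor gene Tle4 fell by 0.48 (SE 0.08, adjusted p = 0.0169) and Lmo4, a LIM domain cofactor, fell by 0.44 (SE 0.06, adjusted p = 0.00513). Tle4 lost its call in 3 of 11 fits without 1 array (highest adjusted p 0.0640, leaving out cortex cKO 4) and with Y-linked signal as a covariate. In the 6 cortex arrays with Y-linked signal, cKO 2 and 3 were the only cKO arrays. There Bcl11b (limma adjusted p = 0.0564), Lmo4 (0.159) and Tle4 (0.214) were not called. Their changes were -0.79 (SE 0.10), -0.41 (SE 0.08) and -0.47 (SE 0.11) in that order, near those of the main fit and with a larger SE. With all 14 arrays Lmo4 was not called (limma adjusted p = 0.0944). Between control regions 2 of the 22 were higher and 10 lower in hippocampus, beside 12.5% of all probe sets called.

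No relative of the members by family was called in cKO cortex, where 1.95% of all probe sets were. Of 14 bHLH, T-box and MEF2 relatives, 7 were positive and 7 negative, with a median of 0.01. Neurod2, a bHLH gene expressed beside Neurod6 in excitatory neurons, stood at 8.58 in control and 8.23 in cKO cortex (-0.35, SE 0.07, limma adjusted p = 0.0544). It was called with a filter on low values, with limma's trend and robust options and without moderation. Bhlhe23 stood at 0.71 (SE 0.16, adjusted p = 0.0747). In control hippocampus 3 of the 14 were higher than in cortex and none lower, beside 6.2% and 6.29% of all probe sets.

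Genes of glutamate release, uptake and the glutamatergic synapse had 1 fall among 27 in cKO cortex, with a median of 0.02. Over all probe sets 1.36% were called lower and the median was -0.02. The gene was Slc17a8, which encodes VGLUT3, the third vesicular transporter. It went from 7.67 to 6.86 (-0.81, SE 0.13, limma adjusted p = 0.0153), and lost the call in 3 of 11 fits without 1 array (highest adjusted p 0.0540, leaving out cortex cKO 4), with all 14 arrays, with Y-linked signal as a covariate and in the 6 cortex arrays with that signal. In those 6 cortex arrays its change was -0.70 (SE 0.17). Slc17a8 was also lower in control hippocampus than in control cortex (-1.40, SE 0.16, adjusted p = 0.00131).

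Markers of cells outside the Neurod6 lineage were read beside the members. Of 12 GABAergic interneuron markers none was called in cKO cortex (median -0.02, with Sst at -0.43, SE 0.10, adjusted p = 0.0744, and Reln at -0.24, SE 0.07, adjusted p = 0.170), and their mean level was 8.33 to 8.46 in control and 8.26 to 8.44 in cKO cortex. None of 12 progenitor, 9 astrocyte, 9 oligodendrocyte, 10 microglia, 8 endothelial or 8 Cajal-Retzius markers was called either. Since 1.95% of all probe sets were called, the absence of calls in lists this short says little. The medians of these 6 lists, from progenitor to Cajal-Retzius markers, were -0.01, 0.07, 0.02, 0.34, -0.19 and -0.05. All 10 microglia markers were positive, among them C1qc (0.41, SE 0.18) and Trem2 (0.39, SE 0.14). Their mean level was 6.48 to 7.05 in control and 6.80 to 7.36 in cKO cortex. Of the astrocyte markers 7 were positive and 2 negative, with Gfap at 0.57 (SE 0.21) and Gjb6 at 0.28 (SE 0.14). Of the endothelial markers 7 were negative and 1 positive, with Kdr at -0.38 (SE 0.11) and Flt1 at -0.26 (SE 0.09). In the progenitor list Pax6 stood at 0.32 (SE 0.12) and Nes at -0.24 (SE 0.18). Among oligodendrocyte markers Cspg4 stood at -0.26 (SE 0.07) and Olig1 at -0.14 (SE 0.09). Nhlh2, a Cajal-Retzius marker, stood at -0.14 (SE 0.08).

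Single markers of neighbouring regions and of upper layers were called in cKO cortex, where 1.95% of all probe sets were. Of 6 thalamus markers Lhx9 rose (0.85, SE 0.10, limma adjusted p = 0.00325) and Slc6a4 fell (-0.62, SE 0.08, adjusted p = 0.00574). With all 14 arrays Lhx9 was not called (adjusted p = 0.659), nor was Slc6a4 in the 6 cortex arrays with Y-linked signal (adjusted p = 0.1). Of 7 striatum markers the dopamine receptor gene Drd1 fell (-1.22, SE 0.20, adjusted p = 0.0173), though not in 6 of 11 fits that left out 1 array (highest adjusted p 0.0614, leaving out cortex control 3). Of 10 hippocampal subfield markers Grik4 fell (-0.75, SE 0.09, adjusted p = 0.00388), but neither with all 14 arrays (adjusted p = 0.564) nor in those 6 cortex arrays (adjusted p = 0.119). Of 6 layer 4 and upper layer markers the netrin receptor gene Unc5d rose (0.49, SE 0.08, adjusted p = 0.0141), but not without cortex cKO 2 (adjusted p = 0.0546). Drd1 and Unc5d also lost their calls with all 14 arrays and in those 6 cortex arrays. With all 14 arrays the cortex changes themselves stayed the same, here and for Lmo4 and Slc17a8 above, and their SE grew. The SE became 0.50 for Lhx9, 0.38 for Grik4, 0.42 for Drd1 and 0.12 for Unc5d. In the 6 cortex arrays with Y-linked signal the changes were -0.55 for Slc6a4, -1.34 for Drd1, -0.71 for Grik4 and 0.59 for Unc5d. The part of these markers in the members' values was not tested.

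**Figure D4:**
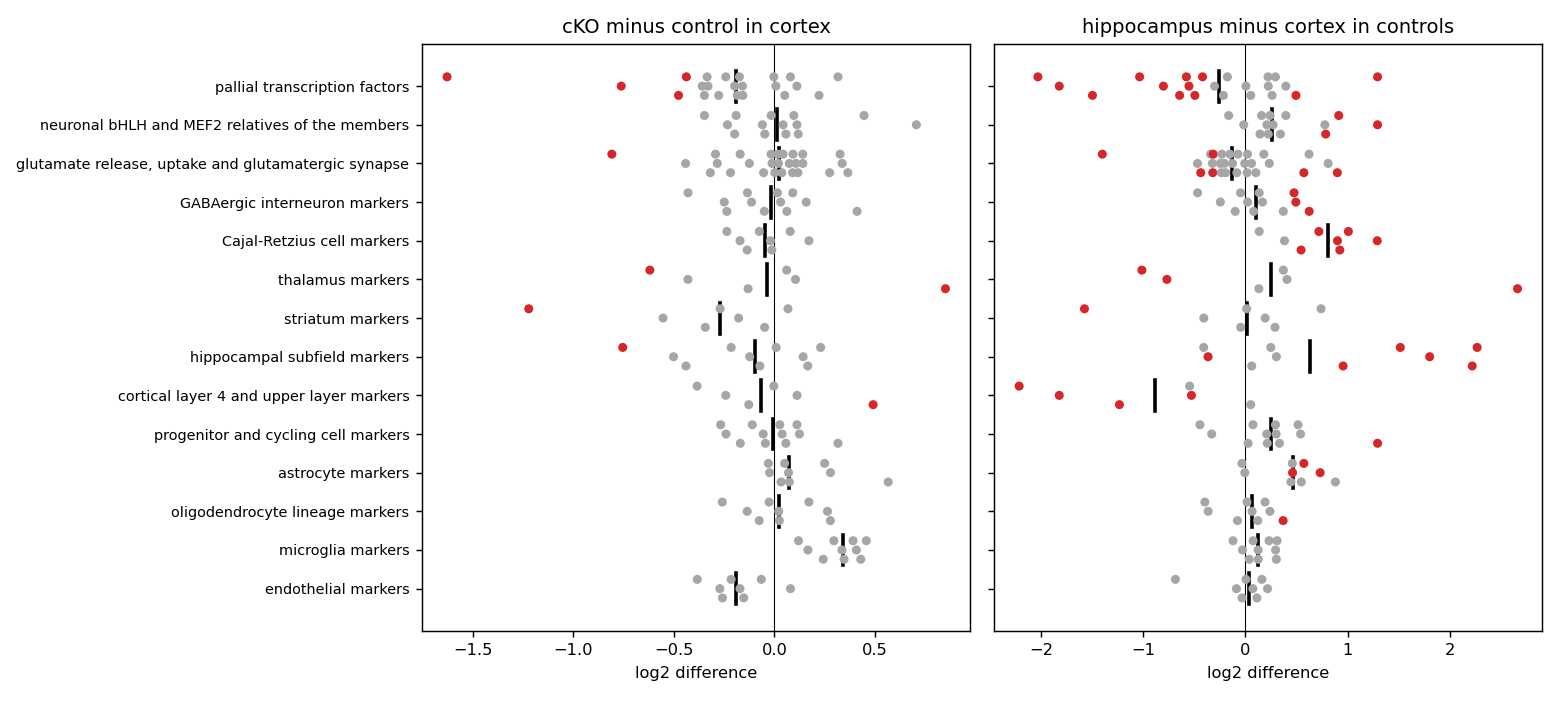
Each point is 1 measured gene of a list, placed by its log2 difference (x axis) between cKO and control cortex (left) or between control hippocampus and control cortex (right), with called genes in red and black bars at list medians. On the left the pallial transcription factors have 4 red points, all negative, and the microglia markers are all positive with no red point; on the right the Cajal-Retzius markers are all positive, 6 of 8 in red.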

How the data were processed

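The authors deposited log2 expression per probe set, made with Affymetrix Expression Console, RMA and Partek 6.4 (build mm9), per the submitters' processing notes. The sources used here do not say which arrays were normalized together. Values were used as deposited for 23332 probe sets. Of these, 14996 carried 1 symbol. Where a gene had several such probe sets, the one with the highest mean was taken.

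Members, lists and the setting aside of 3 arrays were chosen with earlier results of these data known. Group means of the 11 arrays were compared by limma 3.58.1 (lmFit and eBayes, no covariate), run under R 4.3.3. A call needed an adjusted p under 0.05 over all probe sets and a fold above 1.2. SE is the moderated standard error. The procedure was tested on simulated data.

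Genes named were the members, Ctcf, region and Y-linked markers, the 5 genes nearest to Neurod6 and 2 nearest to other members with an SD above 0.3 over the 11 arrays, and from each list all genes called in cortex or else the 2 with the smallest p. The log2 median of 719 olfactory receptor probe sets, 3.61, set the filter on low values, and no listed gene had a mean below it.

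Alternatives were all 14 arrays, cortex arrays alone, Y-linked signal as a covariate, quantile normalization again, median centring, a filter on low values, trend and robust eBayes, no moderation, array weights, replicate number as a block, other fold minima, and leaving out each array. Replicate numbers were not used to pair arrays, since no label names the animal behind an array. Deviations of same-numbered control and cKO cortex arrays correlated at -0.06 to 0.05. These arrays differ in genotype, so the check cannot show whether cortex and hippocampus arrays came from the same animal.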

Additional observations from a re-analysis of the deposited data

Results flagged for a closer look

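Neurod6 on cortex control 4 read 10.05, apart from the other 3 cortex controls at 10.30 to 10.32. Its gap to the nearest of them was 0.933 of the group's whole range, more than Dixon's test allows at 95% for 4 arrays. This was 1 of 14 groups of 4 so tested, and chance marks about 1 in 20. Without that array the cortex fall of Neurod6 was -1.94 (SE 0.23, limma adjusted p = 0.00698).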

How the results depend on the processing

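The cortex fall of Neurod6 kept its direction and its call in all 13 other settings (-2.23 to -1.82, adjusted p of up to 0.0398, with the replicate block) and in all 11 fits without 1 array (-1.99 to -1.67). The test against 2-fold was run in 10 of those settings and in the 11 fits. Adjusted over all probe sets, it was not called in them (adjusted p of at least 0.851). The replicate block changed no call of a member. It did remove the cortex calls of other named genes: Tle4 (limma adjusted p = 0.118), Lmo4 (0.114), Slc17a8 (0.124), Slc6a4 (0.0641), Grik4 (0.0533), Unc5d (0.161) and Pcdhb17. A fold minimum of 1.5 removed those of Tle4, Lmo4 and Unc5d. The 4 calls between regions held without any single array, and were lost only with all 14 arrays.

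Counts of calls moved more. In cortex 455 became 282 with Y-linked signal as a covariate, 56 in the cortex arrays alone without those low in Y-linked signal, 118 with the replicate block, 287 at a fold above 1.5, and 273 to 455 without single arrays (277 without control 3, 290 without control 4, 273 without cKO 2, 276 without cKO 4). Between regions 2913 became 635 with all 14 arrays, 1772 with the covariate, 402 with the block, 1502 at the higher fold, and 597 to 2913 without single arrays (1907 without cortex control 3, 597 without hippocampus control 1, 1544 without hippocampus control 3). In hippocampus 1 became 78 with all 14 arrays, 30 after quantile normalization, 9 after centring and 8 with trend and robust options. It was 0 with the covariate, without moderation or with the block (1447, 1540 and 896 at an unadjusted p under 0.05), and 0 to 4 without single arrays. For the interaction 2 became 0 with all 14 arrays or the block (300 and 880 unadjusted), 4 after quantile normalization or centring, 1 without moderation, and 0 to 2 without single arrays. The cause of these moves was not tested.

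Signs turned for differences that were not called, most of them small, with the Neurod6 interaction (0.68) the exception. In hippocampus, with all 14 arrays, Neurod1 was -0.32, Emx2 -0.50 and Tbr1 0.065. Neurod1 was -0.0071 after quantile normalization and -0.029 after centring, and Emx2 -0.051 and -0.035, or -0.11 with the block. Without single arrays Neurod1 ran from -0.061 to 0.13, Emx2 from -0.045 to 0.10 and Slc17a7 in cortex from -0.033 to 0.22. For the interaction, Neurod6 was -0.081 and Emx2 -0.34 with all 14 arrays, Tbr1 -0.083 and -0.061 and Slc17a7 -0.011 and -0.091 after quantile normalization and centring, and Slc17a7 -0.064 with array weights. Without single arrays Tbr1 ran from -0.075 to 0.15 and Slc17a7 from -0.12 to 0.14. No member had a second probe set, so that alternative was not run.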

Other observations

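The spread of Slc17a7 within each cortex group ran in the same array order as several marker lists, noticed after the values were seen. In controls Slc17a7 and the means of the microglia and the glutamate lists were highest on array 4, then 1, 3 and 2, with microglia means of 7.05, 6.89, 6.53 and 6.48. In cKO these 3 were highest on array 2, then 3, 4 and 1, with microglia means of 7.36, 7.23, 6.85 and 6.80. The astrocyte and oligodendrocyte lists had the same order in controls, and in cKO arrays 2 and 3 were also their highest. No test was made of this order, and none of these lists includes Slc17a7.

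Cajal-Retzius markers, which mark the reelin-secreting neurons of the outermost layer, were higher in control hippocampus than in control cortex for 6 of 8 measured, and none was lower, beside 6.2% and 6.29% of all probe sets. Among these Cxcr4 was higher by 1.29 (SE 0.16, limma adjusted p = 0.00191), Nhlh2 by 1.01 (SE 0.10, adjusted p = 0.000598) and Ndnf by 0.92 (SE 0.14, adjusted p = 0.00504). Reln, the gene of reelin (0.14, SE 0.08, limma adjusted p = 0.318), and Trp73 (0.38, SE 0.13, adjusted p = 0.0869) were not called. Cxcr4 and Ndnf were chosen after their values were seen. Lhx9 was higher in control hippocampus by 2.66 (SE 0.13, adjusted p = 1.65e-05).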
